A study of Homo sapiens with 12 samples.

Results

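A set of 10 genes that are switched on by the extracellular signal-regulated kinase (ERK) pathway were followed: the phosphatase genes DUSP4, DUSP5 and DUSP6, the Sprouty genes SPRY1, SPRY2 and SPRY4, the Sprouty-related genes SPRED1 and SPRED2, and the ETS transcription factor genes ETV4 and ETV5. They were picked by symbol as a readout of ERK output, with earlier results of these data known. All 10 were rows of the table of 17518 genes. RNA sequencing had been done on 12 libraries from MUTZ-1 and SKM-1, 2 human lines of marrow origin labelled as cells of myelodysplastic syndrome, a disorder of blood formation. The groups were MUTZ-1 with a short hairpin RNA against NUDT21 (shNUDT21), MUTZ-1 with a control hairpin, SKM-1 with shNUDT21 and SKM-1 with a control hairpin, with 3 libraries each. NUDT21 is a subunit of the cleavage factor that helps choose where a pre-mRNA is cut and polyadenylated, and the series asks what its loss does in these cells. The labels call the control cells WT and name no other engineered change, and the file headers give the same tag, sh1, to the knockdown libraries of both lines, so that nothing shows whether another hairpin would give the same values. Nothing in the labels says that the replicates were separate cultures, so p-values measure the spread between these libraries, which may be technical.

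ERK is the last kinase of a relay in which an activated receptor loads RAS with GTP and RAS starts the kinases RAF, MEK and ERK. Active ERK raises the transcription of its own brakes: the nuclear phosphatases DUSP4 and DUSP5 and the cytoplasmic phosphatase DUSP6 remove phosphate from ERK, Sprouty proteins dampen signalling between receptor and RAS or RAF, and SPRED proteins bring the RAS-inactivating protein neurofibromin to the membrane. ETV4 and ETV5 are held down by the repressor CIC and are released when ERK signalling inactivates it. The mRNA levels of these genes are therefore widely used as a readout of the pathway, but mRNA counts measure neither phosphorylated ERK nor protein.

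Each library held 15843012 to 18426619 counts. NUDT21 itself was 135, 136 and 142 CPM (counts relative to library size, scaled by trimmed means of M values) in the MUTZ-1 knockdown libraries, against 301, 297 and 301 CPM in MUTZ-1 control libraries, a log2 fold change of -1.12 ± 0.03 (SE). In SKM-1 it was 131, 132 and 129 CPM after knockdown, against 322, 336 and 344 CPM in control libraries (-1.35 ± 0.03 SE). Marker genes of other cell types moved with the groups. All 10 B-lineage markers were higher in MUTZ-1 than in SKM-1 and summed to 1720 to 1770 CPM in MUTZ-1 knockdown libraries, against 2050 to 2060 CPM in MUTZ-1 control libraries. In SKM-1, 12 erythroid markers summed to 4880 to 5090 CPM after knockdown, against 1310 to 1330 CPM in control libraries, 5 epithelial markers to 764 to 789 CPM against 374 to 382 CPM, and 10 monocytic markers to 141 to 147 CPM against 996 to 1020 CPM. The monocytic sum followed 1 gene, CD36, at 26.5 CPM after knockdown against 917 CPM in control cells. CEBPB (23.5 against 40.6 CPM) and CTSS (4.72 against 5.76 CPM) fell as well, while LYZ (25.3 against 9.12 CPM), ITGAM (6.21 against 2.42 CPM) and CD68 (58.3 against 31.7 CPM) rose. In MUTZ-1, the same sums after knockdown and in control libraries were 315 to 320 against 743 to 764 CPM (erythroid), 0.476 to 1.11 against 0.17 to 0.566 CPM (epithelial) and 71.3 to 81.8 against 132 to 138 CPM (monocytic). The erythroid sum of MUTZ-1 likewise followed TFRC, at 291 CPM after knockdown against 736 CPM in control cells, while ANK1 (14.4 against 12.1 CPM) and EPOR (8.88 against 6.21 CPM) rose. KLF1 also passed the test as higher (0.227 against 0.0576 CPM), but its control level was that of 3 counts over the group. The 8 progenitor markers summed to 504 to 527 CPM in MUTZ-1 knockdown libraries, against 501 to 508 CPM in control libraries, and to 166 to 171 CPM in SKM-1 knockdown libraries, against 98.5 to 101 CPM in control libraries, where SPI1, RUNX1, CD33 and AZU1 rose. In MUTZ-1, SPI1 (69.7 CPM after knockdown against 79.9 CPM) and RUNX1 (55.7 against 70.4 CPM) fell, while PTPRC (388 against 353 CPM) rose. AZU1 was also called lower in MUTZ-1, at low levels (0.123 against 0.428 CPM). CD34 and MPO were at or near 0 in all 4 groups. The identity of the cells was not tested here in any of the 4 groups. Every fold change, within SKM-1, within MUTZ-1 and between the lines, therefore compares the libraries as labelled. The part of these shifts in the results was not tested, and in bulk RNA fewer cells of a type and less RNA per cell cannot be told apart.

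The members fell into a set that both lines expressed and a set that SKM-1 alone expressed above the detection filter. DUSP5, SPRED1, SPRED2 and ETV5 reached the filter's level of 0.592 CPM in all 12 libraries. DUSP6, SPRY1, SPRY2, SPRY4 and ETV4 reached it in 0 MUTZ-1 libraries and entered the test only through SKM-1, so for them a difference between the lines was built into the filter. SPRY1 reached it in 5 SKM-1 libraries and passed only with those of the control group, so the filter also favoured its fall with knockdown there. DUSP4, with 0 to 8 counts per library, reached it in 0 libraries and was not tested. In the sum of deposited FPKM, which divides by gene length and lets genes be compared, the 10 members reached 11.4 ± 0.285 FPKM in MUTZ-1 knockdown cells and 10.4 ± 0.206 FPKM in MUTZ-1 control cells (SD, n = 3 each). The SKM-1 sums were 52.1 ± 0.469 FPKM after knockdown and 57.5 ± 1.78 FPKM in control cells (SD, n = 3 each), so the sums differed far more between the lines than with knockdown in either.

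**Figure D1:**
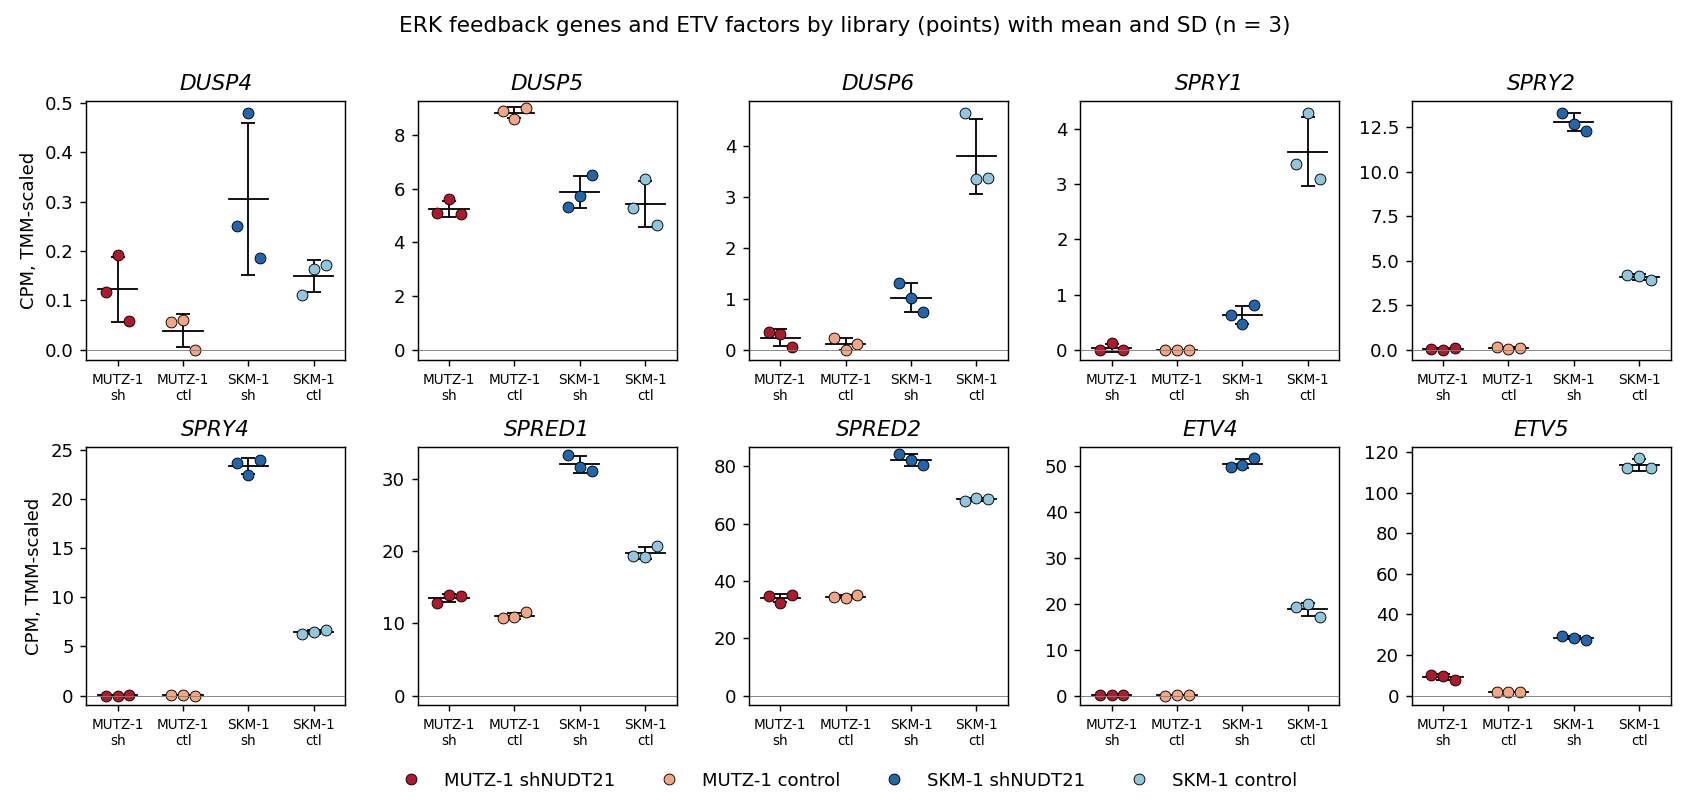
Level of each member in every library, in CPM scaled by trimmed means of M values (vertical axis, a scale of its own for each gene), for knockdown (sh) and control (ctl) libraries of MUTZ-1 and SKM-1; points are libraries, horizontal lines the mean and bars the SD (n = 3). DUSP6, the Sprouty genes and ETV4 lie near 0 in all 6 MUTZ-1 libraries, and ETV5 moves up with knockdown in MUTZ-1 and down in SKM-1.

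Between the control lines, 8 of the 9 members tested were lower in MUTZ-1 than in SKM-1 and 1, DUSP5, was higher (edgeR's quasi-likelihood test, Benjamini-Hochberg adjusted p under 0.05). Among all 13625 genes tested, 48.8% were called lower and 41.4% higher in this comparison of lines, which differ in more than ERK output. For the 5 members that passed the filter through SKM-1 alone the direction was set by the filter, and of the other 4 SPRED1, SPRED2 and ETV5 were lower. Between the knockdown lines 8 members were again lower in MUTZ-1, where 46.6% of all genes were, and DUSP5 was not called. After knockdown in MUTZ-1, 2 members rose, ETV5 and SPRED1, against 24.4% of all genes, and 1 fell, DUSP5, against 24.6%. After knockdown in SKM-1, 5 members rose, ETV4, SPRY2, SPRY4, SPRED1 and SPRED2, against 42.1% of all genes, and 3 fell, ETV5, DUSP6 and SPRY1, against 42.3%, so that a call in either direction was the common case there (84.4% of all genes). The members' changes in SKM-1 were large: the median size of their log2 fold changes was 1.65, against 0.687 over all genes tested, while the signed median was 0.27, against 0 over all genes. Of the members, 3 rose and 3 fell at least 2-fold, against 12.6% and 22.5% of all genes. SPRY1, among those that fell, had passed the filter only with the SKM-1 control libraries. The difference between the knockdown effects was called for 7 members, 3 higher and 4 lower in MUTZ-1 (36.4% and 35.6% of all genes). Of these differences, that of SPRY1 was lost without MUTZ-1 knockdown replicate 2 (adjusted p = 1, edgeR) and that of SPRY2 without the same library (0.0731) or without MUTZ-1 control replicate 1 (0.119). On log2(FPKM + 1), whose pseudocount understates changes of low genes, the calls within each line were kept but the log2 fold changes shrank, to 1.23 for ETV5 in MUTZ-1 and to 1.12 for SPRY4, -0.90 for SPRY1 and -0.71 for DUSP6 in SKM-1. The knockdown comparisons of MUTZ-1 and SKM-1 share no library, and the line comparisons reuse the libraries of both.

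**Figure D2:**
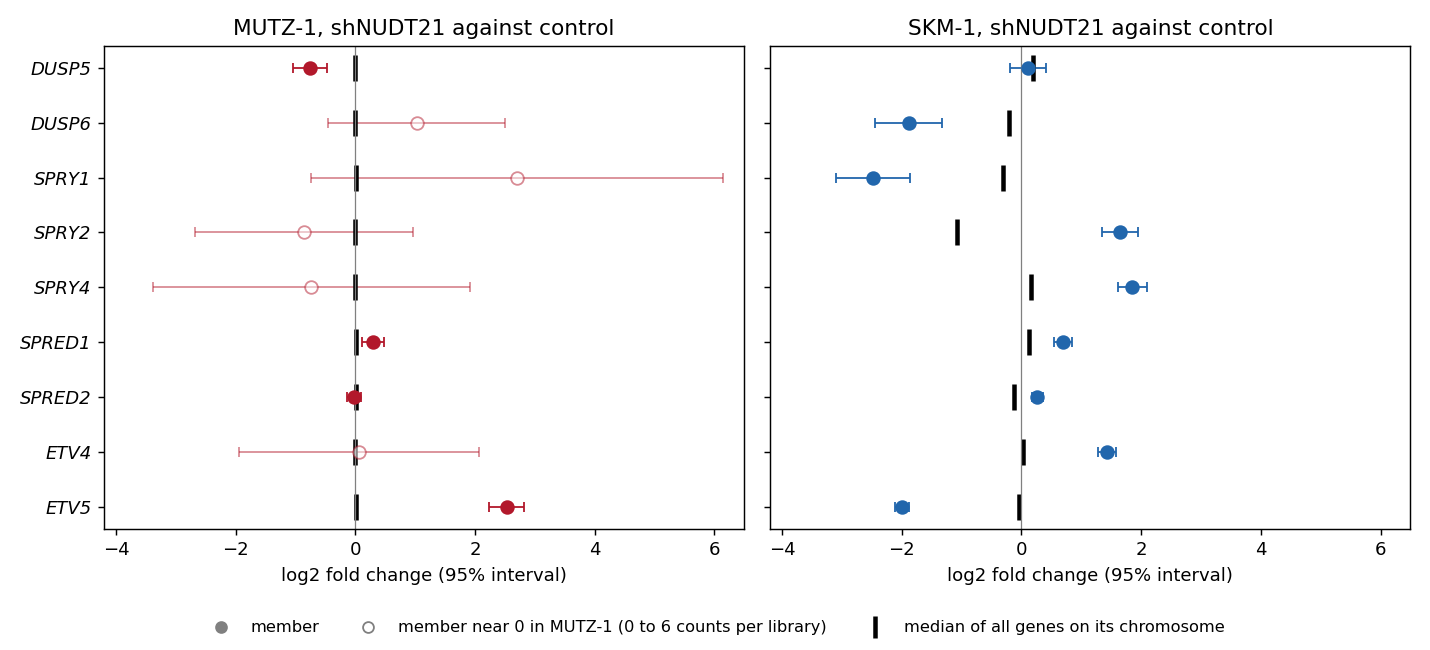
Log2 fold change of shNUDT21 against control (horizontal axis) with its 95% interval for the 9 members tested, in MUTZ-1 (left) and SKM-1 (right); open circles are members with 0 to 6 counts per MUTZ-1 library, and black ticks give the median log2 fold change of all genes with at least 5 CPM on the member's chromosome. ETV5 lies at 2.53 in MUTZ-1 and -2.0 in SKM-1, and in SKM-1 ETV4, SPRY2 and SPRY4 lie to the right while DUSP6 and SPRY1 lie to the left.

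ETV5 (chr3:186046314-186109089, RefSeq GRCh38.p14, as for the other members) gave the largest change of any member in MUTZ-1 that passed the test. It was 10.3, 9.48 and 7.56 CPM in MUTZ-1 knockdown libraries, against 1.53, 1.61 and 1.58 CPM in MUTZ-1 control libraries. Every knockdown library was above every control library, and the rise was 5.77-fold (log2 fold change 2.53 ± 0.15 SE, adjusted p = 4.24e-39, edgeR). A rise of this size was uncommon in MUTZ-1, where 3.11% of all genes rose at least 2-fold and 1.28% of all genes had a log2 fold change at least as high. In SKM-1 the same gene went the other way, with 29.3, 28.6 and 27.6 CPM in knockdown libraries, against 112, 117 and 112 CPM in control libraries. The groups did not overlap, and the fall was 3.99-fold (-2.0 ± 0.06 SE, adjusted p = 7.97e-89, edgeR), where 14.5% of all genes had a log2 fold change at least as low. The difference between the effects, MUTZ-1 minus SKM-1, was 4.53 ± 0.15 (SE) on the log2 scale (adjusted p = 1.86e-74, edgeR). The gap between the lines was smaller after knockdown: ETV5 was 3.12-fold lower in MUTZ-1 than in SKM-1 among knockdown cells and 71.8-fold lower among control cells. The 4 groups did not overlap with their neighbours, in the order SKM-1 control, SKM-1 knockdown, MUTZ-1 knockdown and MUTZ-1 control.

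ETV4 (chr17:43527846-43546340), the close relative of ETV5, rose in SKM-1 where ETV5 fell. It was 49.7, 50.1 and 51.6 CPM in SKM-1 knockdown libraries, against 19.3, 19.9 and 17.1 CPM in SKM-1 control libraries. The groups did not overlap, and the rise was 2.69-fold (log2 fold change 1.43 ± 0.08 SE, adjusted p = 1.21e-45, edgeR). In deposited FPKM, ETV4 over ETV5 was 2.67 ± 0.133 in SKM-1 knockdown cells and 0.248 ± 0.0157 in SKM-1 control cells (SD, n = 3 each), so ETV4 was the more abundant of the pair in knockdown cells and ETV5 in control cells. Their sum was 25.5 ± 0.214 FPKM after knockdown and 36.6 ± 1.26 FPKM in control cells (SD, n = 3 each). ETV1, the third member of the PEA3 subfamily, was 17.8 CPM in SKM-1 knockdown cells and 18.4 CPM in control cells and was not called. In MUTZ-1, ETV4 had 1 count in each knockdown library, against 0, 1 and 2 counts in control libraries. At this depth, with 3 counts in each group, no change of ETV4 was detectable there and no fold is given. Between the lines, ETV4 was 834-fold lower in MUTZ-1 than in SKM-1 among knockdown cells (95% interval 285 to 4050, counting error only) and 326-fold lower among control cells (111 to 1580). By GENCODE v29, exons of ETV5 share 164 bases with DGKG on the same strand and those of ETV4 share 68 bases with DHX8 on the opposite strand, so counts of reads there depend on settings not given in the sources used here.

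The Sprouty genes SPRY1 (chr4:123396795-123403760), SPRY2 (chr13:80335976-80341126) and SPRY4 (chr5:142310430-142325021) moved in opposite directions in SKM-1. SPRY4 was 23.6, 22.4 and 23.9 CPM in SKM-1 knockdown libraries, against 6.24, 6.46 and 6.61 CPM in control libraries. SPRY2 was 13.3, 12.7 and 12.3 CPM after knockdown, against 4.21, 4.13 and 3.91 CPM in control libraries. Neither gene's groups overlapped, and the rises were 3.61-fold for SPRY4 (log2 fold change 1.85 ± 0.12 SE, adjusted p = 2.24e-34, edgeR) and 3.13-fold for SPRY2 (1.65 ± 0.16 SE, adjusted p = 1.25e-20, edgeR). SPRY1 was 0.627, 0.479 and 0.807 CPM in SKM-1 knockdown libraries, against 3.37, 4.29 and 3.10 CPM in control libraries. It fell 5.6-fold without overlap of the groups (-2.49 ± 0.31 SE, adjusted p = 2.98e-13, edgeR), on 31 counts after knockdown and 193 in control cells. SPRY1 reached the filter's level of 0.592 CPM in 5 libraries, all of SKM-1, and the knockdown library at 0.479 CPM lay below it. It passed the filter only with the SKM-1 control libraries, where it was high, so the filter favoured a fall. In FPKM, SPRY1 made up 2.98 ± 0.738% of the 3 genes' sum in SKM-1 knockdown cells and 36.5 ± 3.73% in control cells (SD, n = 3 each). The sum itself was 7.13 ± 0.213 FPKM after knockdown and 3.46 ± 0.24 FPKM in control cells (SD, n = 3 each).

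MUTZ-1 cells were close to empty of Sprouty mRNA. Over the 3 libraries of a group, SPRY1 had 2 counts after knockdown, all in 1 library, and 0 in control cells, SPRY2 had 3 and 6 counts, and SPRY4 had 1 and 2 counts. No change with knockdown was detectable at this depth. SPRY1 was at least 62.5-fold lower in MUTZ-1 than in SKM-1 among control cells, taking a floor of 3 counts over the MUTZ-1 group, and 15.8-fold lower among knockdown cells (95% interval 4.01 to 136, counting error only). SPRY4 was 1150-fold lower among knockdown cells (207 to 45600) and 168-fold lower among control cells (46 to 1390). SPRY2 was 211-fold lower among knockdown cells (72 to 1030) and 35.5-fold lower among control cells (16 to 97.7). SPRY3, a related gene, was at a mean of 0.0209 CPM in SKM-1 knockdown cells and 0.0181 CPM in SKM-1 control cells and was listed at 0 in MUTZ-1.

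The members that rose or fell at least 2-fold in SKM-1 and have an entry in the RefSeq promoter table (ETV4 and ETV5 have none) are shown with the DNA upstream of their start sites, because ETS factors such as ETV4 and ETV5 bind a GGAA core. The sequences are the 250 bases before the start site in RefSeq (GRCh38.p14), read 5′ to 3′ along the gene, with GGAA and its reverse complement TTCC in capitals. SPRY1 and SPRY2 have further start sites in RefSeq, and their outermost one is shown. SPRY4 has 1 entry, whose 250 bases lie inside the gene's span and short of its outermost end at 142325021. The SPRY4 sequence is thus not the DNA before the outermost end of the gene. SPRY1 and DUSP6 fell in SKM-1, and SPRY2 and SPRY4 rose.
SPRY1 (chr4:123396545-123396794, plus strand): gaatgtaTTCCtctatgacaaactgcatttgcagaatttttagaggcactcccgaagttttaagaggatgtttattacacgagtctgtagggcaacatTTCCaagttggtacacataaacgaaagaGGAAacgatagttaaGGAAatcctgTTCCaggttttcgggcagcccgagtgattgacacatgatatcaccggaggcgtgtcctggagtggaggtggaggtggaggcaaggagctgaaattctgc
DUSP6 (chr12:89352502-89352751, minus strand): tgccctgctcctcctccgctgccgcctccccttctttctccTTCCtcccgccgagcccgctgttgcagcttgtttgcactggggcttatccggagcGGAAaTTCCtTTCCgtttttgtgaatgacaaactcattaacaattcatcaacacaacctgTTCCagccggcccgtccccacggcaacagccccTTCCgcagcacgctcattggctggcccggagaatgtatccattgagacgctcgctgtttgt
SPRY2 (chr13:80341127-80341376, minus strand): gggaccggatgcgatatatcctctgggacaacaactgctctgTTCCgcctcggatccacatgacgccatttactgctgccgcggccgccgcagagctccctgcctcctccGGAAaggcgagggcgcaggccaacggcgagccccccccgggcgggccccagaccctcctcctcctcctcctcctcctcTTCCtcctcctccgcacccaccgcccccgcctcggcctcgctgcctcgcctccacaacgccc
SPRY4 (chr5:142324248-142324497, minus strand): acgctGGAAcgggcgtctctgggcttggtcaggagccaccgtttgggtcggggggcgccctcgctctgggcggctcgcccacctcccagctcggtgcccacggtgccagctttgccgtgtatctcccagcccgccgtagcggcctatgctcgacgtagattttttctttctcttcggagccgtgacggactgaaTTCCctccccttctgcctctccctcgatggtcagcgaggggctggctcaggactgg
The core occurred 5 times in the SPRY1 sequence and 6 times in that of DUSP6, against 3 times in SPRY2 and 2 times in SPRY4, where the median over 35116 RefSeq promoters was 3. These counts depend on the start site: before the second SPRY1 start the core occurred 4 times, with 68% G or C, and before the other SPRY2 starts 4 times in each, with 62.4% and 41.2% G or C, so SPRY1 and SPRY2 are not set apart. The sequences shown also differed in base composition, with 45.6% and 57.2% G or C in SPRY1 and DUSP6 and 70.4% and 65.6% in SPRY2 and SPRY4. Over the whole windows of 300 bases (50 bases past the start included, both strands), 6 longer motifs were searched in the 6 members with an entry, which were these 4, SPRED1 and SPRED2. The CIC octamers TGAATGAA and TGAATGGA, held by 1.65% and 1.03% of all promoters, the ETS motif CCGGAAGT (4.14%), the cyclic AMP response element TGACGTCA (1.85%) and the GATA motif AGATAA (10.3%) had no match. The AP-1 motif TGACTCA (4.95%) matched once, in a second SPRED2 promoter. A match is a run of letters, not a bound site, and 4 genes are too few to relate letters to direction.

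**Figure D3:**
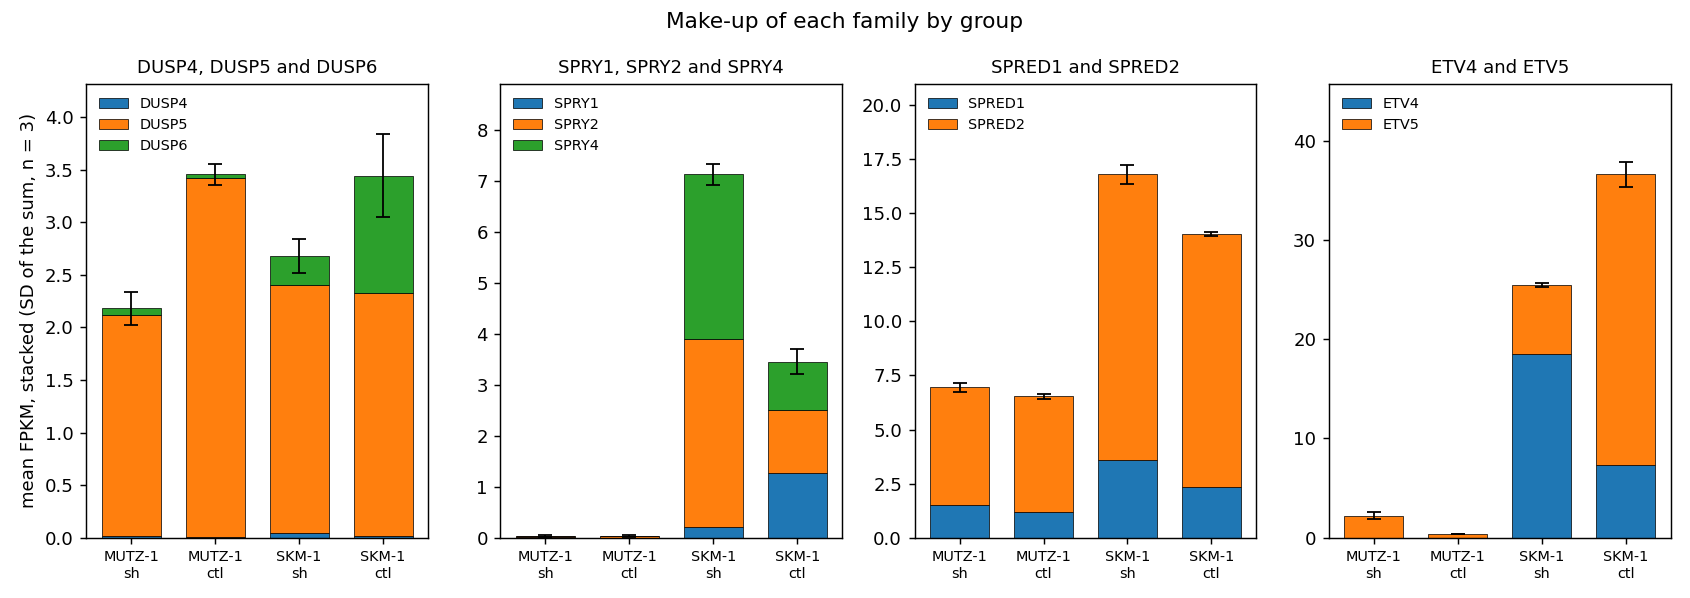
Mean deposited FPKM of the members stacked by family (vertical axes, a scale of its own for each family) in knockdown (sh) and control (ctl) cells of MUTZ-1 and SKM-1; bars show the SD of the summed FPKM over 3 libraries. In SKM-1 knockdown cells ETV4 is the larger part of the ETV sum and SPRY1 is nearly gone from the Sprouty sum, and in MUTZ-1 DUSP5 makes up nearly all of the phosphatase sum.

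The SPRED genes, SPRED1 (chr15:38252836-38357249) and SPRED2 (chr2:65307175-65432599), had the smallest changes among the members called in SKM-1. SPRED1 was 12.8, 13.9 and 13.8 CPM in MUTZ-1 knockdown libraries, against 10.7, 10.8 and 11.5 CPM in control libraries, a rise of 1.22-fold without overlap (log2 fold change 0.29 ± 0.09 SE, adjusted p = 0.00607, edgeR). It also rose in SKM-1, to 33.3, 31.6 and 31.1 CPM in knockdown libraries, against 19.3, 19.2 and 20.7 CPM in control libraries. That rise was 1.62-fold, again without overlap (0.70 ± 0.08 SE, adjusted p = 1.15e-16, edgeR). The rise was smaller in MUTZ-1 than in SKM-1, by 0.40 ± 0.12 (SE) on the log2 scale (adjusted p = 0.00174 for the difference, edgeR). SPRED1 is the only member that was called in the same direction in both lines. SPRED2 was 34.6, 32.3 and 35.1 CPM in MUTZ-1 knockdown libraries, against 34.4, 34.2 and 35.1 CPM in control libraries. Those groups overlapped, and the 95% interval of the log2 fold change ran from -0.13 to 0.09, with a direction that turned under other scalings. In SKM-1, SPRED2 was 84.3, 82.2 and 80.3 CPM after knockdown, against 68.0, 68.8 and 68.5 CPM in control libraries, a rise of 1.20-fold without overlap (0.27 ± 0.04 SE, adjusted p = 1.52e-08, edgeR). The effect of knockdown on SPRED2 differed between the lines by -0.29 ± 0.07 (SE) on the log2 scale, MUTZ-1 minus SKM-1 (adjusted p = 0.000159, edgeR). In FPKM, SPRED2 over SPRED1 was 3.62 ± 0.265 in MUTZ-1 knockdown cells and 4.51 ± 0.128 in MUTZ-1 control cells, and 3.69 ± 0.0517 in SKM-1 knockdown cells and 4.98 ± 0.213 in SKM-1 control cells (SD, n = 3 each). MUTZ-1 held less of both: SPRED1 was 2.37-fold lower than in SKM-1 among knockdown cells and 1.79-fold lower among control cells, and SPRED2 was 2.42-fold and 1.98-fold lower.

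DUSP5 (chr10:110497907-110511533) was the one member tested that MUTZ-1 control cells held at a higher level than SKM-1 control cells, 8.83 ± 0.203 against 5.43 ± 0.858 CPM (SD, n = 3 each; log2 fold change 0.70 ± 0.14 SE, adjusted p = 2.23e-06, edgeR). Knockdown lowered it in MUTZ-1, to 5.10, 5.6 and 5.06 CPM in knockdown libraries, against 8.89, 8.60 and 8.99 CPM in control libraries. The groups did not overlap, and the fall was 1.68-fold (-0.75 ± 0.14 SE, adjusted p = 2.37e-06, edgeR). In SKM-1, DUSP5 was 5.33, 5.74 and 6.52 CPM after knockdown, against 5.28, 6.35 and 4.65 CPM in control libraries. Those groups overlapped, and the 95% interval of the log2 fold change ran from -0.19 to 0.41 (adjusted p = 0.506, edgeR). The effects differed by -0.86 ± 0.21 (SE) on the log2 scale, MUTZ-1 minus SKM-1 (adjusted p = 0.000109, edgeR), and after knockdown the ranges of the lines overlapped.

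DUSP6 (chr12:89347235-89352501), the ERK-specific cytoplasmic phosphatase, was 1.32, 1.02 and 0.745 CPM in SKM-1 knockdown libraries, against 4.66, 3.37 and 3.39 CPM in control libraries. It fell 3.69-fold without overlap of the groups (log2 fold change -1.89 ± 0.28 SE, adjusted p = 3.58e-10, edgeR), on 50 counts after knockdown and 204 in control cells. In MUTZ-1 it had 6, 5 and 1 counts per library after knockdown, against 4, 0 and 2 counts in control libraries, and no change was detectable at this depth (ratio 2.10, 95% interval 0.73 to 6.82, counting error only). GENCODE v29 lists an antisense gene, AC024909.2, that shares 1875 exon bases with DUSP6, and whether strand was used in counting is not given in the sources used here. DUSP4 (chr8:29333064-29350684) had 2, 3 and 1 counts in MUTZ-1 knockdown libraries, against 1, 1 and 0 counts in control libraries. In SKM-1 it had 4, 8 and 3 counts after knockdown, against 2, 3 and 3 counts in control libraries. A fit without the filter, over 17090 genes, called DUSP4 in neither line (adjusted p = 0.397 in MUTZ-1 and 0.254 in SKM-1, edgeR). In summed FPKM, the 3 phosphatases reached 2.19 ± 0.156 in MUTZ-1 knockdown cells and 3.45 ± 0.102 in MUTZ-1 control cells, and 2.68 ± 0.162 in SKM-1 knockdown cells and 3.44 ± 0.394 in SKM-1 control cells (SD, n = 3 each), so this was the family whose sum was nearly equal in the control lines.

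In SKM-1 the whole chromosome of a member could move. The median log2 fold change of genes with at least 5 CPM ran from -0.0368 to 0.0275 over the 22 autosomes in MUTZ-1, against -1.07 to 0.537 in SKM-1. SPRY2 lies on the chromosome with the lowest SKM-1 median, 13 (-1.07), and rose against it. The SKM-1 medians for the other members that fell were -0.311 on chromosome 4 (SPRY1), -0.204 on chromosome 12 (DUSP6) and -0.044 on chromosome 3 (ETV5), each smaller in size than the member's own fall. For the others that rose they were 0.151 on chromosome 5 (SPRY4), 0.124 on chromosome 15 (SPRED1), -0.125 on chromosome 2 (SPRED2) and 0.0236 on chromosome 17 (ETV4). The part of these shifts in the members' changes was not tested, nor was the identity of the SKM-1 knockdown cells, whose chromosome medians and lineage markers both differ from those of the control cells.

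The genes that act before, beside and after the members were read as 8 lists of 79 genes, of which 78 were in the table and 71 were tested. Like the members, the lists were chosen with earlier results of these data known. In MUTZ-1, 29 rose and 10 fell with knockdown, and in SKM-1, 31 rose and 32 fell. Among all genes tested, 24.4% rose and 24.6% fell in MUTZ-1, and 42.1% rose and 42.3% fell in SKM-1, where the lists' counts lie near those shares. Of the 14 tested members of the list of other ERK output genes, 9 rose and 0 fell in MUTZ-1, against 24.4% and 24.6% of all genes, and 6 rose and 5 fell in SKM-1, against 42.1% and 42.3% (median log2 fold changes 0.40 and 0.24, against 0 over all genes in both lines). Some of the MUTZ-1 rises were small, with log2 fold changes of 0.059 for MYC, 0.056 for MCL1 and 0.133 for IER2. For scale, library totals in place of trimmed means moved the median of all genes by 0.0476 there. EGR1, an immediate-early transcription factor, was 7.78 ± 0.737 CPM in MUTZ-1 knockdown cells and 2.81 ± 0.384 CPM in MUTZ-1 control cells, and JUNB, a subunit of AP-1, was 53.5 ± 2.69 and 40.5 ± 2.53 CPM (SD, n = 3 each). Both also rose in SKM-1, EGR1 to a mean of 283 CPM in knockdown cells, against 83.3 CPM in control cells, and JUNB to 73.2 against 34.2 CPM. MYC, EPHA2 and EPHA4 fell in SKM-1: MYC was 465 ± 6.05 CPM in knockdown cells and 2140 ± 43 CPM in control cells, EPHA2 2.20 ± 0.366 and 27.7 ± 0.714 CPM, and EPHA4 0.899 ± 0.165 and 28.8 ± 0.907 CPM (SD, n = 3 each). Like the members, the output list had calls in both directions in SKM-1.

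Other phosphatases that act on MAP kinases also changed. PTPRR, a receptor-type tyrosine phosphatase that dephosphorylates ERK, was 42.2 ± 1.5 CPM in MUTZ-1 knockdown cells and 4.04 ± 0.421 CPM in MUTZ-1 control cells, and 18.7 ± 1.44 CPM in SKM-1 knockdown cells and 3.66 ± 0.391 CPM in SKM-1 control cells (SD, n = 3 each). It was the phosphatase of the list called higher in both lines, and its rise was larger in MUTZ-1 by 1.02 ± 0.17 (SE) on the log2 scale (adjusted p = 2.02e-08, edgeR). PTPN7, a haematopoietic phosphatase that acts on ERK, was 152 ± 8.22 CPM in SKM-1 knockdown cells and 19.1 ± 1.51 CPM in control cells. DUSP2, another nuclear phosphatase of the DUSP4 and DUSP5 kind, was 0.306 ± 0.0978 CPM in SKM-1 knockdown cells and 9.86 ± 0.992 CPM in control cells (SD, n = 3 each). DUSP10 and DUSP16, which act mainly on JNK and p38, rose in MUTZ-1, to 17.4 ± 0.779 and 35.7 ± 1.95 CPM in knockdown cells, against 9.64 ± 0.202 and 23.3 ± 1.97 CPM in control cells. In SKM-1, DUSP16 fell, to 28 ± 3.76 CPM in knockdown cells against 82.2 ± 2.92 CPM in control cells, and DUSP10 was not called. Of 8 such phosphatases tested, 3 rose and 0 fell in MUTZ-1 (24.4% and 24.6% of all genes), and 3 rose and 3 fell in SKM-1 (42.1% and 42.3%).

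Upstream, 5 of the 11 genes of the RAS to ERK core were called in MUTZ-1, 2 higher and 3 lower (24.4% and 24.6% of all genes), and all 11 in SKM-1, 9 higher and 2 lower, where 84.4% of all genes were called, 42.1% higher and 42.3% lower (medians -0.04 and 0.28). MAPK3, which encodes ERK1, rose in MUTZ-1, to 93.8 ± 1.59 CPM in knockdown cells against 74.6 ± 3.18 CPM in control cells, and fell in SKM-1, to 58.5 ± 4.01 CPM in knockdown cells against 106 ± 1.87 CPM in control cells (SD, n = 3 each). KSR1, a scaffold of the cascade, rose in both lines, to 9.89 ± 0.504 CPM in MUTZ-1 knockdown cells against 8.03 ± 0.542 CPM in MUTZ-1 control cells, and to 136 ± 1.41 CPM in SKM-1 knockdown cells against 70.7 ± 2.61 CPM in SKM-1 control cells. The MUTZ-1 call of KSR1 was lost without control replicate 3 (adjusted p = 0.0505, edgeR).

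Receptors and ligands start the relay. Of 10 tested, 4 rose and 1 fell in MUTZ-1 (24.4% and 24.6% of all genes), and 4 rose and 6 fell in SKM-1 (42.1% and 42.3%). Low levels limit the MUTZ-1 count. Among its rises is ERBB3, at means of 0.399 CPM after knockdown and 0.114 CPM in control cells, below the filter's level of 0.592 CPM. FGFR3, KIT, AREG, EREG and TGFA also had means below that level in both MUTZ-1 groups. Medians of the list are not given, since AREG, EREG and TGFA were listed at 0 in MUTZ-1 control libraries. HBEGF, a ligand of the EGF receptor family, was 37.4 ± 1.09 CPM in MUTZ-1 knockdown cells and 8.19 ± 0.62 CPM in MUTZ-1 control cells (SD, n = 3 each; log2 fold change 2.19 ± 0.10 SE). FGFR1, KIT and IGF1R, receptors that signal through RAS, fell in SKM-1, while the receptors FGFR3 and ERBB3 rose. FGFR3 was 80.5 ± 3.7 CPM in SKM-1 knockdown cells and 31.2 ± 1.2 CPM in control cells (SD, n = 3 each). ERBB3 was 18 ± 1.02 CPM in SKM-1 knockdown cells and 8.9 ± 0.81 CPM in control cells. FGFR1 was 3.85 ± 0.445 CPM in SKM-1 knockdown cells and 109 ± 1.97 CPM in control cells, KIT 7.10 ± 1.17 and 49.4 ± 1.82 CPM, and IGF1R 15.4 ± 1.67 and 70.2 ± 1.23 CPM (SD, n = 3 each). IGF1R rose in MUTZ-1, to 101 ± 3.31 CPM in knockdown cells against 80.8 ± 2.02 CPM in control cells.

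Among the RAS GTPase-activating proteins, which switch RAS off, 3 of 6 rose and 0 fell in MUTZ-1, against 24.4% and 24.6% of all genes, and 1 rose and 4 fell in SKM-1, against 42.1% and 42.3% (median 0.12 in MUTZ-1; none is given for SKM-1, where RASAL3 was listed at 0 after knockdown). DAB2IP was 48.9 ± 2.54 CPM in MUTZ-1 knockdown cells and 27.0 ± 1.73 CPM in MUTZ-1 control cells, and 1.12 ± 0.314 CPM in SKM-1 knockdown cells and 32.3 ± 0.646 CPM in SKM-1 control cells (SD, n = 3 each). NF1, the partner of the SPRED proteins, was 84.9 ± 2.30 CPM in MUTZ-1 knockdown cells and 77.1 ± 2.81 CPM in MUTZ-1 control cells (SD, n = 3 each), and fell in SKM-1 to a mean of 146 CPM against 186 CPM. Of 9 adaptors and exchange factors, 4 rose and 2 fell in MUTZ-1 (24.4% and 24.6% of all genes), and 3 rose and 6 fell in SKM-1 (42.1% and 42.3%). GAB2, an adaptor of cytokine and growth factor receptors, rose in both lines. It was 13.5 ± 1.27 CPM in MUTZ-1 knockdown cells and 5.76 ± 0.169 CPM in MUTZ-1 control cells. In SKM-1 it was 62.0 ± 2.92 CPM in knockdown cells and 42.1 ± 1.63 CPM in control cells. Its relative GAB1 went opposite ways in the lines. GAB1 rose in MUTZ-1, to 99 ± 0.804 against 65.3 ± 0.311 CPM, and fell in SKM-1, to 24.1 ± 1.14 against 44.4 ± 3.46 CPM (SD, n = 3 each). With library totals in place of trimmed means, 0 of the 9 fell in MUTZ-1.

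Of the 11 transcription factor genes known to act on promoters of this kind, 4 rose and 4 fell in MUTZ-1, against 24.4% and 24.6% of all genes, and 5 rose and 5 fell in SKM-1, against 42.1% and 42.3% (medians 0.02 and -0.13). CIC, the repressor of ETV4 and ETV5, rose in both lines, to 102 CPM in MUTZ-1 knockdown cells against 92.1 CPM in MUTZ-1 control cells, and to 92.7 CPM in SKM-1 knockdown cells against 78.1 CPM in SKM-1 control cells. ATXN1 and ATXN1L, which encode proteins that bind CIC and stabilise it, fell in SKM-1. ATXN1 was 0.737 ± 0.246 CPM in SKM-1 knockdown cells and 15.8 ± 0.614 CPM in control cells, and ATXN1L 47.7 ± 1.83 CPM and 113 ± 1.07 CPM (SD, n = 3 each). In MUTZ-1, ATXN1 rose, to 4.08 CPM in knockdown cells against 2.13 CPM in control cells, and ATXN1L fell, to 66.5 against 79.3 CPM. ELK3 rose in MUTZ-1, to 10.8 CPM in knockdown cells against 7.37 CPM in control cells, and fell in SKM-1, to 13.3 against 51.3 CPM. SRF and ELK4 fell in MUTZ-1, to 74.4 and 56.9 CPM in knockdown cells against 95.4 and 73 CPM in control cells. In SKM-1, ELK4 fell and SRF rose. The part of CIC in the members' changes was not tested.

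**Figure D4:**
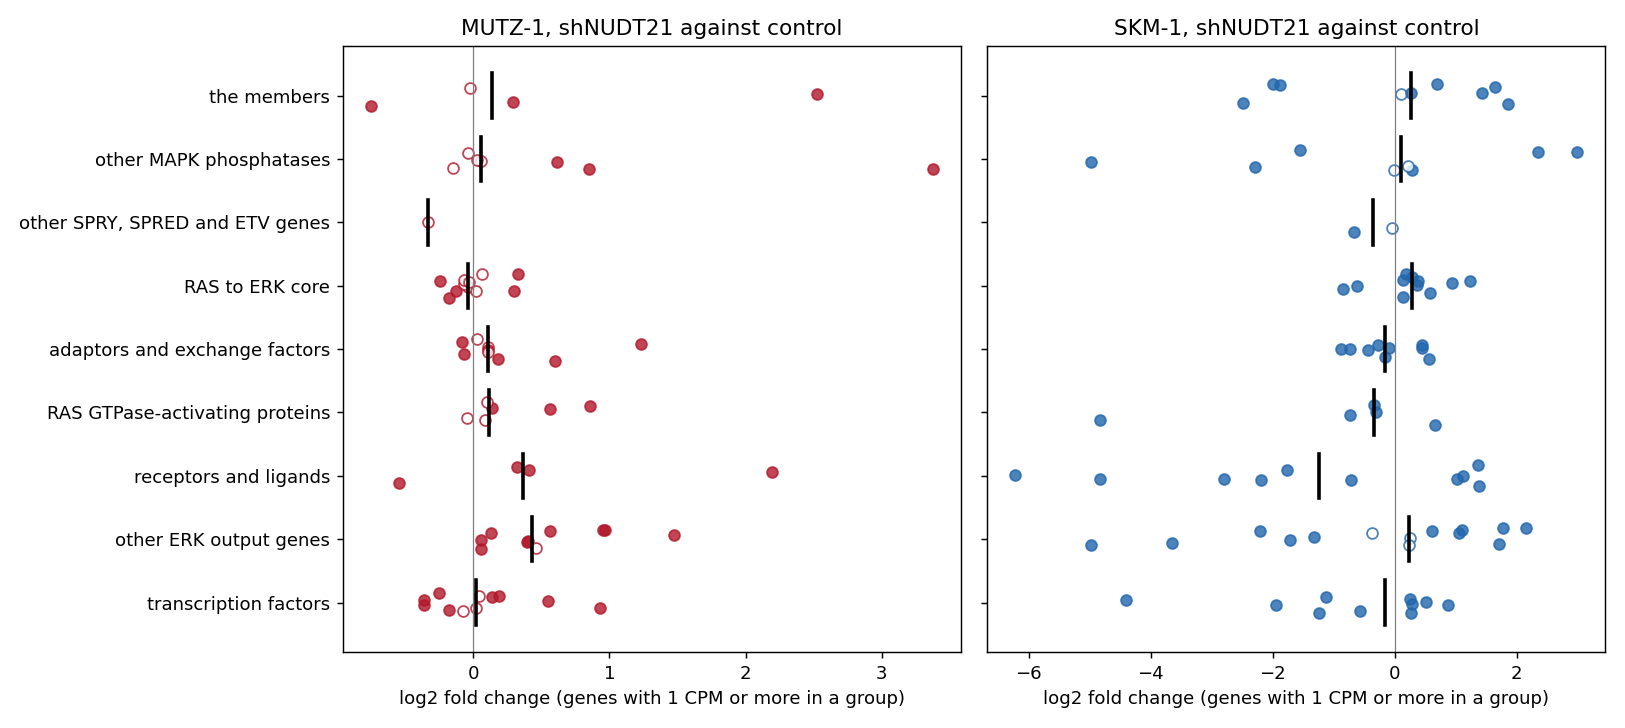
Log2 fold change of shNUDT21 against control (horizontal axis, a scale of its own in each line) for the members and the 8 lists of ERK pathway genes, in MUTZ-1 (left) and SKM-1 (right), for genes with at least 1 CPM in a group of that line; filled points were called at an adjusted p under 0.05 (edgeR), open points were not, and black lines are medians of the points drawn. In MUTZ-1 the points above 1 are ETV5, PTPRR, HBEGF, EGR1 and GAB2, and in SKM-1 each list but that of 2 genes reaches out on both sides.

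Genes with the pattern most like a member's were found over the 4 group means among 10893 genes with at least 5 CPM, as the smallest root mean square difference of centred log2 values. The member closest to another gene was SPRED2, with NME3 at 0.00546 log2 units. NME3 was 7.23 and 7.27 CPM in MUTZ-1 knockdown and control cells and 17.9 and 14.8 CPM in SKM-1 knockdown and control cells. For SPRY4 the nearest was CFD (0.0271), for DUSP5 LMLN (0.04), for SPRED1 RPS6KC1 (0.052) and for ETV4 WNK4 (0.0545). ETV5 had no such near match: its nearest gene, ASAP2, was 0.379 log2 units away, with 5.10 and 1.26 CPM in MUTZ-1 knockdown and control cells and 22.6 and 49.7 CPM in SKM-1 knockdown and control cells. With 4 points and this many genes, near matches describe shape only.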

How the data were processed

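Per the labels' protocols, TRIzol was used for the RNA and the TruSeq Stranded mRNA kit for the libraries. The authors deposited a table of counts, whole reads per gene, and a table of FPKM of the same libraries; per the submitters' processing notes they used fastp, HISAT2, HTSeq and GRCh38. No version, annotation or strand setting is given in the sources used here. The FPKM equal the count over the library total and 1 length per gene. Groups came from the sample titles. Counts were filtered with filterByExpr, which kept 13625 genes, and tested with edgeR 4.0.16 (R 4.3.3), its quasi-likelihood test with robust shrinkage and TMM scaling, in 1 fit of all 12 libraries with 5 contrasts and Benjamini-Hochberg adjustment over all genes tested; a call is an adjusted p under 0.05. The script was tested on simulated counts. Intervals are 95% intervals, exact binomial for ratios of low counts; those and floors cover counting error only. Named genes were the members and, per list and line, up to 3 called genes with the largest change at 5 CPM or more; CIC, ETV1 and SPRY3 and the values of EGR1, JUNB and NF1 in SKM-1 and of ATXN1 and ATXN1L in MUTZ-1 were added after they were seen. One result that the rule would name is not reported here. Alternatives were library totals, DESeq2 size factors, DESeq2 1.42.0, no filter, limma 3.58.1 on log2(FPKM + 1) and log2(FPKM + 0.1), a replicate block, the 6 libraries of a comparison alone and each library left out. Members and lists were chosen with earlier results of these data known. Locations and promoters are from RefSeq GRCh38.p14.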

Additional observations from a re-analysis of the deposited data

Results flagged for a closer look

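The knockdown effect differed between the lines (MUTZ-1 minus SKM-1, log2 scale, edgeR's quasi-likelihood test of the difference) for 7 members. The difference was 4.53 for ETV5 (adjusted p = 1.86e-74), -0.858 for DUSP5 (0.000109), -0.405 for SPRED1 (0.00174) and -0.287 for SPRED2 (0.000159), and all of these genes had 27 or more counts in every library. For DUSP6 it was 2.91 (0.000751), for SPRY1 5.18 (0.0186) and for SPRY2 -2.50 (0.0171), and there the MUTZ-1 side rests on 0 to 6 counts per library. The SPRY1 value depends on how a group of 0 counts is treated and is no bound, and its call was lost without MUTZ-1 knockdown replicate 2, the library that holds both of its MUTZ-1 knockdown counts (adjusted p = 1). The SPRY2 call was lost without MUTZ-1 control replicate 1 (adjusted p = 0.119) and without MUTZ-1 knockdown replicate 2 (0.0731). For SPRY4 and ETV4 the difference was not called (adjusted p = 0.135 and 0.314).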

How the results depend on the processing

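Each of 87 log2 fold changes was set against up to 20 alternatives, 1731 pairs in all, and 1714 kept their direction and their side of the threshold. All counts of members and of all genes called stayed within 1.5 times, and leaving out 1 library left the members' difference between lines at 2 to 3 higher and 3 to 5 lower. The exceptions near 0 were SPRED2 in MUTZ-1, not called throughout, whose log2 fold change became 0.02558 with library totals, 4.458e-05 with DESeq2 size factors, 0.02011 and 0.02329 on log2(FPKM + 1) and log2(FPKM + 0.1), and -0.04426 to 0.04368 over all alternatives, with 0.005771 without SKM-1 shNUDT21 replicate 2, and ETV4 in MUTZ-1, also not called, whose fitted value ran from -0.4545 without MUTZ-1 control replicate 1 to 0.8974 without control replicate 3; with 3 counts in each group these values are no measure of change. ERBB2 in MUTZ-1 lost its call without MUTZ-1 shNUDT21 replicate 3 (adjusted p = 0.123). The difference between lines became called for SPRY4 (adjusted p = 9.35e-11 and 4.97e-08) and ETV4 (1.95e-09 and 8.16e-06) on the 2 FPKM scales, and for SPRY4 without MUTZ-1 shNUDT21 replicate 3 (0.0488). Adaptors called lower in MUTZ-1 numbered 0 with library totals, against 2. Library totals moved the median of all genes by 0.129 for the difference between lines and -0.136 for the control lines, and the share of MUTZ-1 calls that were higher was 60.7%, against 49.8%; on the FPKM scales it was 61.1% and 61.2%. Replicate numbers did not pair the samples (correlations of same-numbered deviations -0.0555 to 0.0265), and with a replicate block the members' counts were 2 higher and 1 lower in MUTZ-1 and 5 and 3 in SKM-1, with 3243 and 3290 of all genes called higher and lower in MUTZ-1 and 5706 and 5742 in SKM-1. Low counts limit the 5 members near 0 in MUTZ-1 and DUSP4 in both lines.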
